A study of Mus musculus with 2 samples.

Results

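The intervals described here lie in 3 stretches of the mouse genome, on chromosomes 10, 19 and 11, where the KLF4 chromatin immunoprecipitation (ChIP) list is crowded. Windows of 500 kb on other chromosomes were crowded too, with up to 30 intervals. An interval is a region listed as enriched by the authors, and each carries a summit and a score for that summit, called the peak height here. Members were all intervals whose midpoint lay on chromosome 10 from 79 to 81 Mb, on chromosome 19 from 3 to 6.5 Mb or on chromosome 11 from 115 to 121.8 Mb (mm9), the last of these reaching the limit of 121843856 given for the stretch. These limits were chosen by the density of intervals in this same list, so the number of members, their density and the gaps between them are a description with no test. There were 349 members among 8148 intervals in all: 110 on chromosome 10, 99 on chromosome 19 and 140 on chromosome 11. They were set beside the other 1222 intervals of the same 3 chromosomes.

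The list came from 1 ChIP library made with an antibody to KLF4. The cells were bone marrow cells positive for GFP, CD4 and CD8, sorted 4 weeks after transplantation from leukaemic mice in which NOTCH1 had induced T cell acute lymphoblastic leukaemia (T-ALL). The library is labelled "KLF-4 KO" and its strain Klf4flox/flox vav-Cre on a C57BL/6 background, while the input library of the series has the same strain name and the genotype label "Normal". Vav-Cre drives recombination in blood cells, so the antibody's target may have been absent from the cells of the ChIP library, and its members are described as listed intervals, not as KLF4 binding sites. The input library was not analysed here, and with 1 library there is no replicate, no comparison between conditions and no test of a condition.

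KLF4, a member of the Krüppel-like factors, is a transcription factor whose zinc fingers bind GC-rich DNA and CACCC-type elements, and in T cells it is known as a factor that restrains proliferation. The series title links its loss to Map2k7, the kinase that activates JNK. Mouse chromosomes 11 and 19 are known as gene-rich chromosomes. No genome or gene annotation of the mm9 build was used here, so the number of genes in the stretches was not measured, no gene was assigned to an interval and no sequence was read. The stretches are therefore called by their chromosome rather than by gene density.

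The 3 stretches were short parts of their chromosomes and held a large part of the intervals. The stretch on chromosome 10 was 1.61% of the length from that chromosome's first interval to its last and held 24.4% of its 451 intervals. On chromosome 19 the stretch was 6.03% of this length and held 33.0% of 300 intervals, and on chromosome 11 it was 5.77% and held 17.1% of 820. Chromosome 10 thus had the shortest stretch and the steepest contrast. Its density was 55.0 intervals per Mb (95% exact Poisson interval 45.2 to 66.3) against 2.80 in the rest of the chromosome (2.51 to 3.11). Chromosome 19 had 28.3 per Mb (23.0 to 34.4) against 3.67 (3.18 to 4.21). Chromosome 11 had 20.5 per Mb (17.2 to 24.1) against 6.07 (5.62 to 6.55). The ranges in brackets, here and later, allow for counting error alone, and grouped intervals make the true error larger. They do not allow for the choice of the stretches by density, so nothing is read from density ranges that do not meet.

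Because density chose the stretches, other windows of the same length are given as a description only. None on the same chromosome held as many intervals, when windows were moved in steps of 500 kb outside the stretch. The fullest of 237 such windows on chromosome 10 held 37 intervals, at 126 to 128 Mb, and the median one 4. The fullest of 103 windows on chromosome 19 held 42, and it began at 6.5 Mb, where the stretch ends. On chromosome 11 the fullest of 211 windows held 111, at 96.5 to 103.3 Mb, against 140 in the stretch and a median of 37. Chromosome 11 thus had other crowded parts nearly as full as its stretch, while chromosomes 10 and 19 had none within 2 times of theirs.

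Inside the stretches the intervals came in groups separated by empty parts. In windows of 100 kb, the stretch on chromosome 10 had 2 empty windows of 20, that on chromosome 19 had 7 of 35 and that on chromosome 11 had 23 of 69. Windows with 5 or more intervals held 93 of the 110 members on chromosome 10 (84.5%), 63 of 99 on chromosome 19 (63.6%) and 51 of 140 on chromosome 11 (36.4%). Empty windows were thus rarer on chromosome 10 than on chromosome 11. The density was also higher on chromosome 10, so these counts do not separate patchiness from density. The median window held 6 intervals on chromosome 10 and 2 on each of the other stretches.

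**Figure D1:**
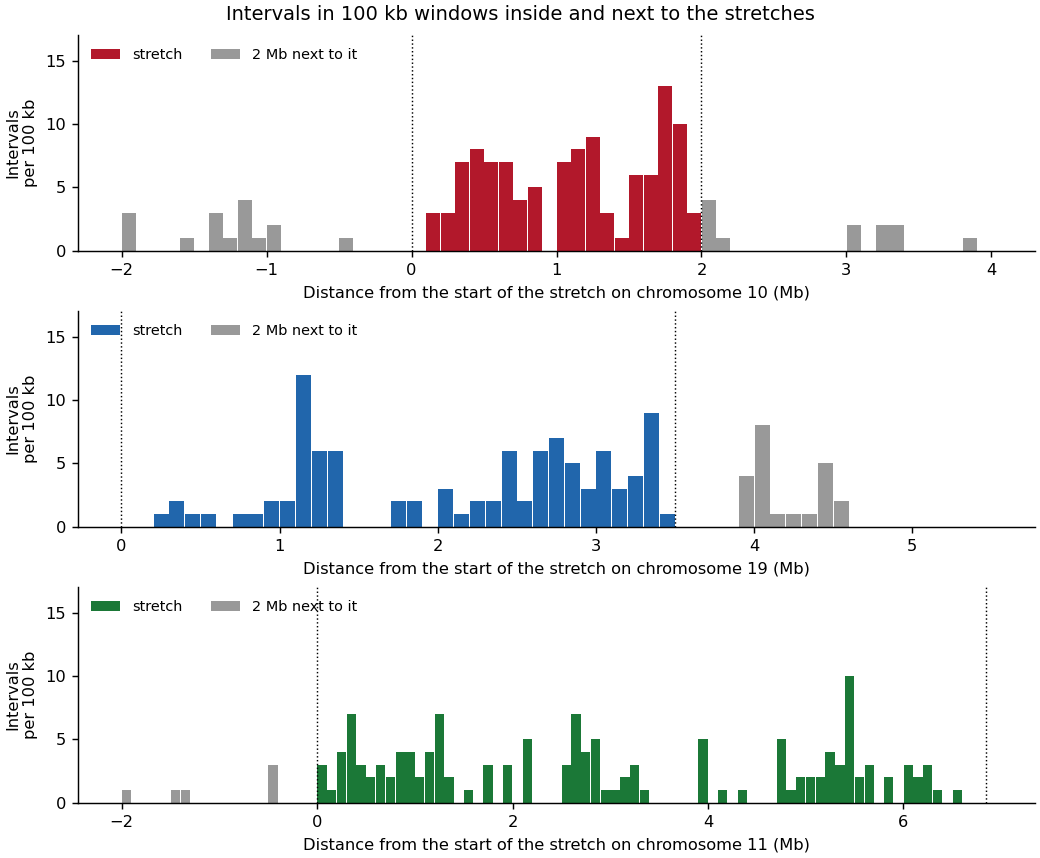
Number of intervals (vertical axis) in each 100 kb window against the distance in Mb from the start of each stretch (horizontal axis), with coloured bars inside the stretch, grey bars in the 2 Mb next to it and dotted lines at its limits. The fullest windows hold 13, 12 and 10 intervals on chromosomes 10, 19 and 11, and the grey bars beside chromosome 10 reach 4 at most.

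The limits of the stretches fell at different kinds of edges. On chromosome 10 the 2 Mb below the stretch held 16 intervals and the 2 Mb above it held 12. The first interval inside (79131373 to 79133006, height 56) was separated by 570.7 kb from the last one outside (78559974 to 78560698, height 13). At the upper limit the last interval inside (80961050 to 80962688, height 13) and the first outside (81007497 to 81008369, height 14) were 44.8 kb apart, a shorter gap than at the lower limit. On chromosome 19 a gap of 511.8 kb followed the last interval inside (6400994 to 6401870, height 11), the next interval lay at 6913629 to 6914804 with a height of 11, and the 2 Mb above the stretch held 22 intervals. The first interval of that chromosome was a member, at 3282464 to 3283454 with a height of 15. On chromosome 11 a gap of 486.7 kb preceded the first member (115024009 to 115026166, height 22), the last interval outside lay at 114536366 to 114537260 with a height of 9, and the 2 Mb below the stretch held 6 intervals. The last member, at 121533837 to 121535221 with a height of 22, was also the last interval of the chromosome. The stretches of chromosomes 10 and 11 thus had a wide gap at the lower limit, and that of chromosome 19 at the upper limit.

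The fullest 100 kb of each stretch showed how the groups were built. The window on chromosome 10 from 80700001 to 80800000 held 13 intervals, with heights from 10 to 31 and a median of 13. Its intervals covered 18.0 kb, and 7 of them followed one another between 80772794 and 80793227, with widths from 1027 to 3026 bp. Their heights in order were 13, 12, 13, 10, 11, 31 and 23, so 5 low intervals stood beside 2 tall ones. The window on chromosome 19 from 4100001 to 4200000 held 12 intervals with heights from 10 to 23 and a median of 14.5. On chromosome 11 the window from 120400001 to 120500000 held 10 intervals with heights from 16 to 24 and a median of 17. None of the 10 was lower than 16 or as wide as 2 kb, so the fullest windows differed in make-up: low and tall intervals together on chromosome 10, and a narrow range of heights on chromosome 11.

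Runs of intervals linked by gaps of at most 10 kb were longest on chromosome 10. The longest run there had 11 intervals over 46.7 kb (80755105 to 80801824), of which 36.1% was covered by intervals, with a median height of 13. The longest on chromosome 19 had 7 intervals over 23.6 kb (4282544 to 4306127), with heights from 11 to 21. The longest on chromosome 11 had 5 intervals over 16.9 kb (120478632 to 120495525), with heights from 16 to 20. None of these 3 runs held a member among the 5 tallest of its stretch. Runs of 3 or more took up 66 of the 110 members on chromosome 10 (60.0%), against 29 of the 341 other intervals of that chromosome (8.50%). On chromosome 19 they took up 40 of 99 (40.4%) against 23 of 201 (11.4%), and on chromosome 11 44 of 140 (31.4%) against 154 of 680 (22.6%). Members outside any run numbered 32, 35 and 64 on chromosomes 10, 19 and 11. These single members of chromosome 10 had a median height of 19 and those in runs of 3 or more 15. The same medians were 17 and 15 on chromosome 19, and 16 and 16 on chromosome 11.

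Gaps between neighbours were short, as the choice of the stretches implies. The gap was at most 10 kb for 58 of 109 pairs of neighbours on chromosome 10 (53.2%), 43 of 98 on chromosome 19 (43.9%) and 48 of 139 on chromosome 11 (34.5%). In the whole list the share was 21.5%, and nothing is read from the difference because the density chose the stretches. Gaps of at most 1 kb made up 15.6%, 13.3% and 12.9% of the pairs in the same order, against 8.32% in the whole list. The smallest gaps were 29 bp on chromosome 10 (80007685 to 80007713), 26 bp on chromosome 19 (6341206 to 6341231) and 13 bp on chromosome 11 (118945110 to 118945122). Each joined intervals with heights between 10 and 13. The pair on chromosome 11 belonged to a row of 4 intervals from 118942245 to 118948095 with gaps of 132, 13 and 198 bp and heights of 15, 10, 11 and 28. The intervals of such rows may be parts of 1 wider region, and whether the authors' peak caller divided them was not tested.

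The heights of neighbours at most 1 kb apart were read pair by pair. Of the 48 such pairs in the stretches, 1 had a height of 20 or more in both intervals, and 16 had both under 15. Of the 99 such pairs in the rest of these chromosomes, 4 and 24 did. Among all members 28.4% reached a height of 20 and 39.8% were under 15, against 23.7% and 44.1% of the other intervals. Pairs farther apart were not compared, so no trait of close pairs is read from these counts. On chromosome 10, the 31 members with a neighbour within 1 kb had a median height of 13 and the other 79 members 19. On chromosomes 19 and 11 the same medians were 15 against 16 and 16 against 16. Among the stretches, the difference in medians was thus largest on chromosome 10. In the rest of chromosomes 10, 19 and 11 the medians were 15 against 15, 14 against 16 and 14 against 15. In the whole list they were 14 against 16, so a lower median beside a close neighbour was not particular to chromosome 10.

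The longest gaps inside the stretches ranged widely. The longest was 108.9 kb on chromosome 10 (79897100 to 80005982), 357.1 kb on chromosome 19 (4398340 to 4755409) and 568.6 kb on chromosome 11 (118333036 to 118901613). The gap on chromosome 19 ended at the third tallest member of that stretch, at 4755410 to 4757308 with a height of 39. No member on chromosome 10 was more than 50 kb from its nearest neighbour, while 7 on chromosome 19 and 13 on chromosome 11 were. The 7 on chromosome 19 had a median height of 24 and the 13 on chromosome 11 a median of 15.

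Heights did not enter the limits of the stretches. They parted most from the rest of the chromosome on chromosome 10, as a description of this 1 list. The 110 members on chromosome 10 had heights from 9 to 56 with a median of 17 (95% order-statistic interval 14 to 19) and quartiles of 13 and 22. The other intervals of that chromosome had a median of 15 (14 to 15) and quartiles of 12 and 19. The lower parts of these distributions were alike and the upper parts parted: 42.7% of the members and 46.6% of the others were under 15. A height of 20 or more was reached by 38 members (34.5%, 95% exact binomial interval 25.7 to 44.2%) and by 72 of the 341 others (21.1%, 16.9 to 25.8%), against 23.9% in the whole list. A height of 30 was reached by 9 members (8.18%, 3.81 to 14.96%) and by 10 others (2.93%, 1.42 to 5.33%), against 3.56% in the whole list. The ranges of members and others overlap for the median and for both shares, at a height of 20 only at their edges. No test was made, because neighbouring intervals are not independent and the list has no replicate.

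On chromosomes 19 and 11 the heights of the stretch and of the rest overlapped almost entirely. The members on chromosome 19 had heights from 9 to 60 with a median of 16 (15 to 17), and the rest of the chromosome had a median of 16 (15 to 16). A height of 20 was reached by 24 of 99 members (24.2%, 16.2 to 33.9%) and by 51 of 201 others (25.4%, 19.5 to 32.0%). The members on chromosome 11 had heights from 9 to 34 with a median of 16 (14 to 17), and the rest had a median of 15 (15 to 16). A height of 20 was reached by 37 of 140 members (26.4%, 19.3 to 34.5%) and by 167 of 680 others (24.6%, 21.4 to 28.0%). These shares lie near the 23.9% of the whole list. A height of 30 was reached by 6 of 99 members and 6 of 201 others on chromosome 19 (6.06%, 2.26 to 12.7%, and 2.99%, 1.103 to 6.38%). It was reached by 3 of 140 members and 29 of 680 others on chromosome 11 (2.14%, 0.444 to 6.13%, and 4.26%, 2.87 to 6.07%). These ranges overlap on each of the 2 chromosomes, as they do on chromosome 10.

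**Figure D2:**
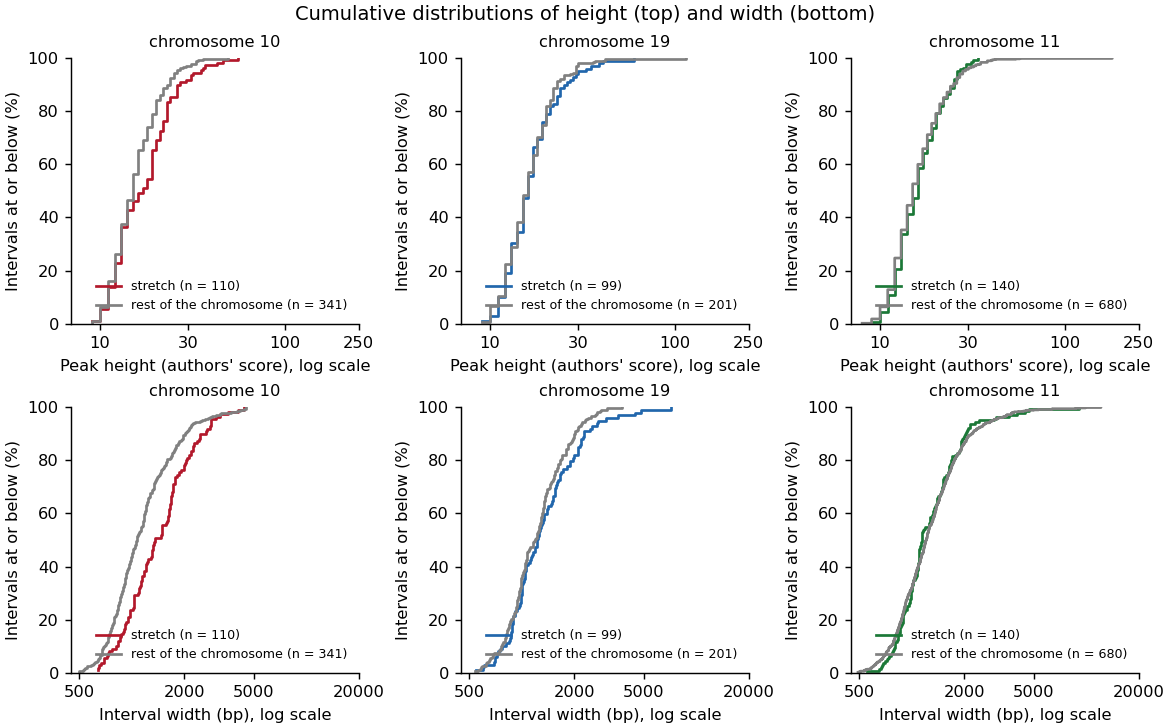
Cumulative share of intervals (vertical axes, percent) at or below a peak height (top row, the authors' score, log scale) or an interval width (bottom row, bp, log scale), in the stretch (coloured) and in the rest of the same chromosome (grey). On chromosome 10 the coloured lines lie to the right, with medians of 17 against 15 and 1356.5 against 1067 bp, and on chromosomes 19 and 11 the lines nearly coincide for heights.

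The tallest members stood in different settings. On chromosome 10 the tallest was the first interval of the stretch (79131373 to 79133006), with a height of 56 over 1634 bp and its nearest neighbour 11.1 kb away. The next, at 80638394 to 80642459, had a height of 46 over 4066 bp and was also the second widest of the stretch. It was followed after 2.01 kb by an interval of height 37 (80644470 to 80646237) and after another 8.48 kb by one of height 31 (80654717 to 80656572), the last of these named after its value was seen. The other 2 of the 5 tallest lay at 79315891 to 79318566 with a height of 43 and at 79754843 to 79756554 with a height of 36. Of the 10 tallest intervals of chromosome 10, 6 were members, and 3 of the 10 widest were. Of the 20 tallest and the 20 widest, 9 and 8 were members, where members made up 24.4% of all intervals of the chromosome.

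On chromosome 19 the tallest member had a height of 60 over 2197 bp at 3767165 to 3769361. No other interval lay within 80 kb of it, and the next interval after it was the fourth tallest (3851140 to 3852657, height 35). The second tallest and the fifth tallest belonged to a group of wide intervals between 5793726 and 5850398. That group held the 3 widest members: 7177 bp at 5843222 to 5850398 with a height of 33, 4811 bp at 5799683 to 5804493 with a height of 41, and 4443 bp at 5793726 to 5798168 with a height of 30. Of the 10 tallest intervals of chromosome 19, 6 were members, and 6 of the 10 widest were. Of the 20 tallest and the 20 widest, 8 and 9 were members, where members made up 33.0% of all intervals. The tallest of all on that chromosome, with a height of 114, was not a member.

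On chromosome 11 no member was among the 10 tallest intervals of the chromosome, whose lowest had a height of 38, and 2 were among the 10 widest. Of the 20 tallest and the 20 widest, 1 and 4 were members, where members made up 17.1% of all intervals. The tallest member lay at 116712711 to 116715655 with a height of 34, and the next 2 at 115884560 to 115886377 and 120851836 to 120853101 had heights of 32 and 31. Adjoining the second of these 5 tallest, after a gap of 273 bp, was another of them, 4029 bp wide with a height of 29 (115880258 to 115884286). The widest member covered 9077 bp at 116194030 to 116203106 with a height of only 25, and an interval of height 13 followed it after 47 bp. The next widest were 4675 bp at 116294734 to 116299408, with a height of 29, and 4433 bp at 116300141 to 116304573, with a height of 18, separated by 732 bp. The widest members of chromosome 11 thus lay within 110.5 kb of one another, and those of chromosome 19 within 56.7 kb, while those of chromosome 10 were spread over 1219.3 kb.

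**Figure D3:**
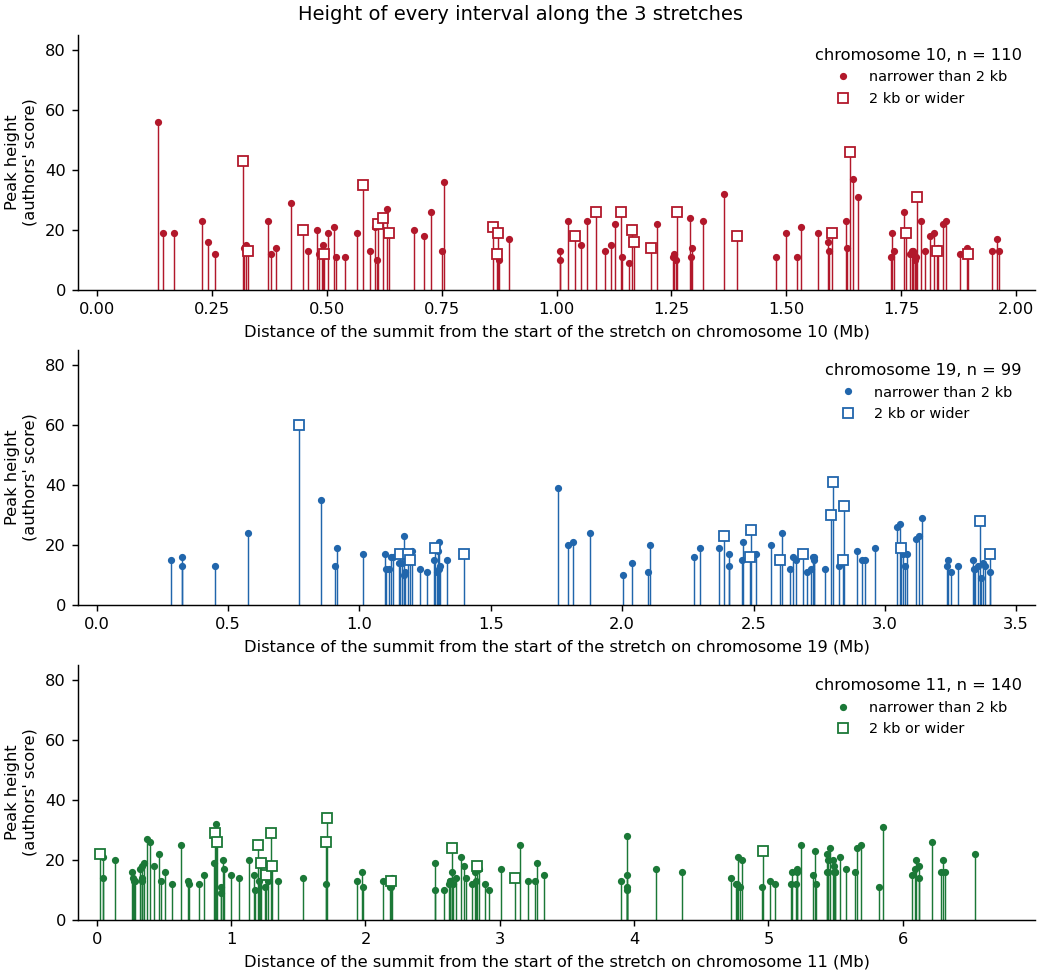
Peak height (vertical axes, the authors' score) of each of the 349 members against the distance of its summit from the start of the stretch in Mb (horizontal axes), with open squares for intervals of 2 kb or more. The tallest members are seen at heights of 56 and 60 in the first parts of the stretches on chromosomes 10 and 19, and no member on chromosome 11 exceeds 34.

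Intervals were wider in the stretch than in the rest of the chromosome on chromosome 10, and the medians lay close together on the other chromosomes. The median width was 1356.5 bp on chromosome 10 (95% order-statistic interval 1210 to 1634) against 1067 bp (1004 to 1151) in its rest. It was 1225 bp on chromosome 19 (1063 to 1392) against 1186 bp (1068 to 1284). It was 1136 bp on chromosome 11 (1090 to 1307) against 1212 bp (1169 to 1252). A width of 2 kb or more occurred in 25 members on chromosome 10 (22.7%, 15.3 to 31.7%), against 36 of the 341 others (10.6%, 7.504 to 14.3%) and 10.7% of the whole list. On chromosome 19 it occurred in 18 of 99 members (18.2%, 11.1 to 27.2%) and 21 of 201 others (10.4%, 6.58 to 15.5%). On chromosome 11 it occurred in 15 of 140 members (10.7%, 6.12 to 17.1%) and 92 of 680 others (13.5%, 11.05 to 16.3%). After merging intervals within 1 kb, the shares on chromosome 11 were 17.2% and 17.05%. The share of wide intervals was thus higher than in the rest on chromosomes 10 and 19, and not on chromosome 11. The ranges overlap on chromosome 19. Outside the stretches this share rose with crowding over the whole list. It was 7.37% in 500 kb windows with 1 to 4 intervals and 10.03% with 5 to 9. With 10 or more it was 16.5% (14.9 to 18.3%), which overlaps the range of each stretch. The higher share on chromosomes 10 and 19 was thus not particular to the stretches. Widths of 3 kb or more numbered 5, 5 and 6 in the stretches of chromosomes 10, 19 and 11 (4.55%, 5.05% and 4.29%), against 3.23%, 0.995% and 4.56% in the rest of each chromosome and 2.69% in the whole list. On chromosome 11 the share was close to that of the rest, with overlapping ranges (1.59 to 9.09% against 3.12 to 6.41%). On chromosome 19 these 5 were most of the 7 such intervals of the chromosome.

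Taller intervals are wider across this list, so widths were also read within classes of height. The difference on chromosome 10 lay in the low classes. Members with heights from 8 to 14 had a median width of 1168 bp (973 to 1470, n = 47), against 888 bp (846 to 938, n = 159) in the rest of the chromosome, and 6 against 3 of them reached 2 kb. With heights from 15 to 19 the medians were 1280 bp (1082 to 1819, n = 25) and 1139.5 bp (1064 to 1212, n = 110). With heights from 20 to 29 they were 1620 bp (n = 29) and 1526.5 bp (n = 62), and from 30 upwards 1856 bp (n = 9) and 1963.5 bp (n = 10). In the class from 8 to 14, the rests of chromosomes 19 and 11 had medians of 994 bp (933 to 1070) and 997 bp (930 to 1058). The range of the members of chromosome 10 overlaps both, and the rest of chromosome 10 had the lowest median. The low members of chromosome 10 were thus wide for their height beside the rest of their own chromosome. The medians of the tall ones lay closer to those of tall intervals elsewhere on the chromosome. The widest member of that stretch was itself low, with a height of 13 over 4381 bp at 80826069 to 80830449.

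On chromosome 19 the class of 30 and more stood apart, with a median of 3320 bp for 6 members (range 1518 to 7177) against 1293.5 bp for 6 others (782 to 2124). The members in it include the 3 widest named above. In the class from 15 to 19, 11 of 41 members reached 2 kb (26.8%), against 7 of 73 others (9.59%), with median widths of 1329 and 1186 bp. The class from 20 to 29 went the other way, with 3 of 18 members (16.7%) against 11 of 45 others (24.4%) and median widths of 1313.5 and 1549 bp. In the class from 8 to 14 no member of 34 and 2 of 77 others reached 2 kb, with medians of 1022.5 and 994 bp, so members of chromosome 19 were not wider in every class. On chromosome 11 the medians of members and others differed by less than 100 bp in the 3 classes below 30. Across members, height and width had a Spearman correlation of 0.42 on chromosome 10, 0.47 on chromosome 19 and 0.52 on chromosome 11, against 0.53, 0.47 and 0.56 in the rest of each chromosome. These are descriptions across intervals of 1 library.

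**Figure D4:**
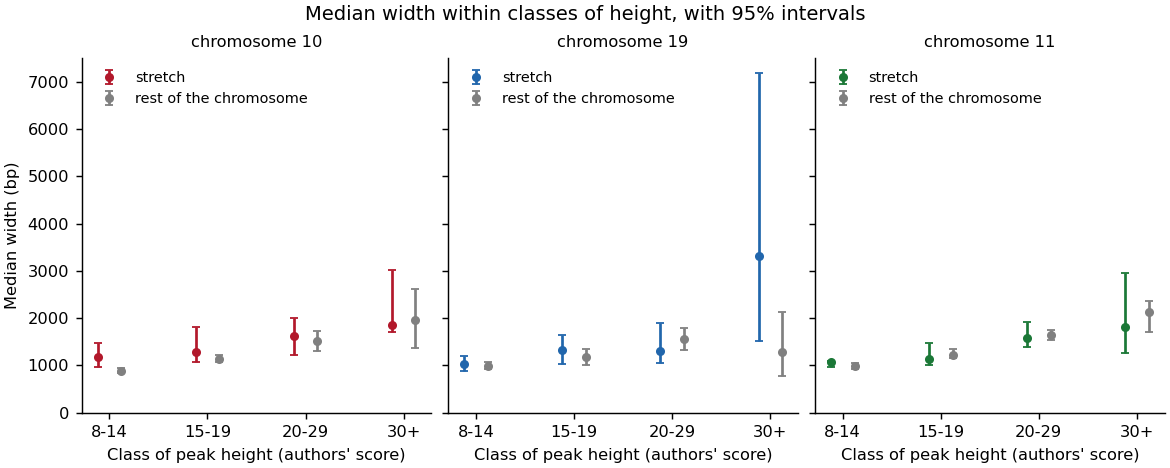
Median interval width in bp (vertical axes) within classes of peak height (horizontal axes, the authors' score), in the stretch (coloured) and in the rest of the same chromosome (grey). Bars are 95% order-statistic intervals, or the whole range where a class has under 6 intervals. The lowest class of chromosome 10 shows 1168 against 888 bp with bars that do not meet. The grey medians of that class are 994 bp on chromosome 19 and 997 bp on chromosome 11.

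Summits lay a little farther from the middle of the interval in the stretch of chromosome 10 than elsewhere. The median distance between summit and midpoint was 187.75 bp there, against 108 bp in the rest of that chromosome, and members are also wider there. It was 111 bp on chromosome 19 and 137.75 bp on chromosome 11, against 116 bp in the rest of each. The summit lay in the middle part of the interval, between 25 and 75% of its width, for 307 of the 349 members (88.0%) and 1124 of the 1222 others (92.0%).

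Height and width also varied along each stretch, which was divided into 3 parts of equal length. The median width on chromosome 10 was 1604, 1348 and 1280 bp from the lower to the upper part, and the median height 19, 17 and 16. The number of members was 34, 35 and 41, so the fullest part had the lowest medians, although it also held the 2 widest members and the second tallest. The number on chromosome 19 was 18, 27 and 54, with a median height of 16 in each part and median widths of 1191.5, 1216 and 1292 bp. On chromosome 11 the number was 60, 34 and 46. Wide intervals of 2 kb or more were 11, 3 and 1 of these, and heights of 20 or more were 16, 4 and 17. The median heights of the 3 parts were 15, 14 and 16, and the median widths 1270.5, 1089.5 and 1064 bp. The part of chromosome 11 nearest the end of the chromosome had the largest share at a height of 20 or more, 37.0%, and the smallest at 2 kb or more, 2.17%. The middle part had 11.8% and 8.82%.

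To see whether the stretches resembled other crowded parts of the genome, windows of 500 kb with 10 or more intervals were compared over the whole list. There were 13 such windows in the stretches, with 285 members, and 135 elsewhere, with 1881 intervals. Median heights of the windows ran from 13.5 to 19 in the stretches, with a median of 15.5, and from 12 to 22 elsewhere, also with a median of 15.5. Median widths ran from 1021.5 to 1666 bp in the stretches, with a median of 1262 bp, and from 814.5 to 1785.5 bp elsewhere, with a median of 1228 bp. The windows of the stretches thus lay inside the range of the others in both medians, though the range of 135 windows is wide. Quartiles of the median height were 15 and 16 in the stretches and 14 and 16.5 elsewhere. Those of the median width were 1149 and 1409 bp against 1118.8 and 1340 bp. The windows of the stretches were fuller, with a median of 21 intervals (14 to 38) against 13 (10 to 30). Pooled over intervals, 27.0% of the members in these windows reached a height of 20 (21.9 to 32.6%) and 25.1% of the intervals elsewhere did (23.1 to 27.1%). A width of 2 kb was reached by 18.2% (13.9 to 23.2%) and 16.5% (14.9 to 18.3%).

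The windows of chromosome 10 lay toward the upper end in width. The window from 79500001 to 80000000 held 23 members. Its median height of 19 was above that of 128 of the 135 windows elsewhere, and its median width of 1666 bp above that of 133. The windows from 79000001 and from 80000001 had median widths of 1485 and 1409 bp, above 125 and 114 of the windows elsewhere, but median heights of 15 and 15.5, near the middle. The fullest window of the list, from 80500001 to 81000000 with 38 members, had medians of 15 for height and 1262 bp for width, above 46 and 80 of the others. On chromosome 19 the window from 5500001 to 6000000, which holds the 3 widest members, had a median width of 1543 bp, above 127 of the others. On chromosome 11 the window from 117500001 to 118000000 was among the lowest, with medians of 13.5 for height and 1021.5 bp for width, each above 15 of the others. The fullest window of the list was thus neither the tallest nor the widest of them.

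**Figure D5:**
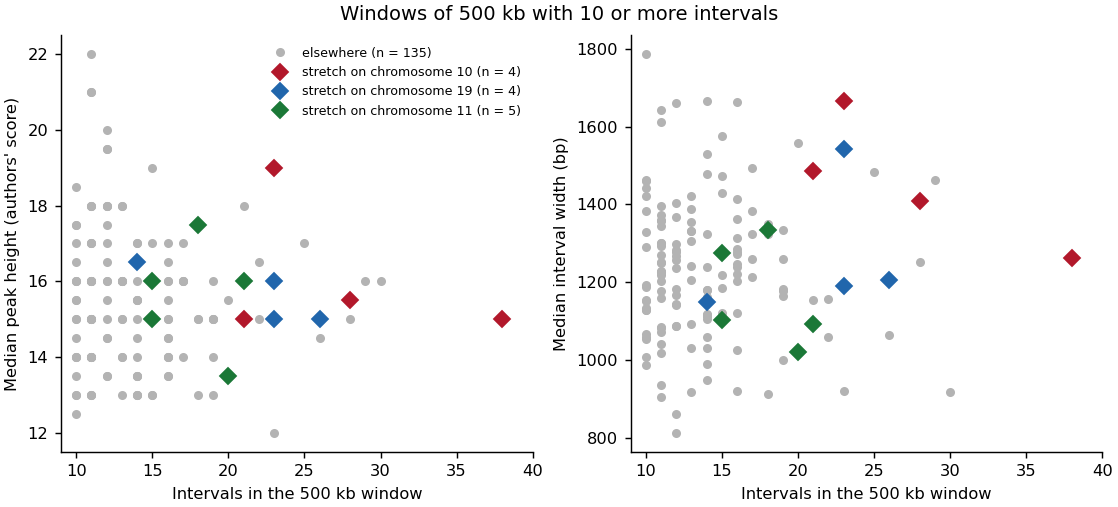
Median peak height (left, the authors' score) and median interval width in bp (right) of each 500 kb window with 10 or more intervals, against the number of intervals in it, for the 13 windows of the stretches (diamonds) and 135 windows elsewhere (grey). The window with 38 intervals sits at a height of 15 and a width of 1262 bp, near the middle of the other windows.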

How the data were processed

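The authors deposited 1 file for the KLF4 ChIP library with 2 tracks, summits and intervals, per the file headers. Per the submitters' processing notes, BWA 0.6.1, SICER 1.1 and MACS were used, with no role given, and the builds hg19 and mm9 are named. How peaks were called and filtered, whether the input was used and how deeply the library was sequenced is not given in the sources used here. The deposited score in the summit track, given by the authors to each peak, is a whole number on a scale named nowhere, and was used only to describe and rank intervals within this list. Other deposited columns are positions in base pairs. Interval positions are here counted from 1, and summit positions were used as deposited.

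Summits and intervals were joined by row order, and 8148 of 8148 summits lay inside their interval. Width, gap to the next interval, counts per window and runs were computed with Python 3.11.15, numpy 2.4.6, pandas 2.3.3 and scipy 1.17.1. Numbers of members and tall members, median width, gaps within 1 kb, runs and merging were checked on simulated data. Counts per window were not checked in this way. Shares carry exact binomial (Clopper-Pearson) intervals and medians order-statistic intervals, at 95%. No test was run. Named intervals are the 5 tallest and 3 widest of each stretch, its fullest 100 kb window, smallest and longest gap, longest run, and the intervals just inside and outside its limits; the run and the 3 equal parts were, like the neighbours of named intervals, described after their values were seen. The stretches and the measures were chosen with earlier results of these data known. Alternatives were merging within 1 kb, a height minimum of 15, limits moved by 250 kb, membership by overlap of 1 bp, and other limits of gap, height and width.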

Additional observations from a re-analysis of the deposited data

How the results depend on the processing

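Of 96 values recomputed under alternative settings, 67 stayed inside the counting interval of the value as reported (for numbers of members, within 1.5 times). Membership by overlap left the members of all 3 stretches unchanged. Limits moved 250 kb outwards left those of chromosomes 19 and 11 unchanged. There these settings only repeat the reported values, so they add no weight to this count or to the counts of settings below. The counts of settings also include the values as reported. Keeping only heights of 15 or more left 63, 65 and 82 members on chromosomes 10, 19 and 11. By its construction it raised the median heights to 21, 18 and 19 (rest of the chromosome 18, 18 and 19) and the shares at a height of 20 to 60.3%, 36.9% and 45.1%. The median widths on chromosomes 19 and 11 became 1409 and 1429 bp, the share of 2 kb or more on chromosome 19 became 27.7%, and the shares of gaps within 10 kb became 29.03%, 25% and 22.2%. Merging intervals within 1 kb gave, on chromosome 11, a share of 17.2% at 2 kb or more and 24.8% of gaps within 10 kb. Other limits gave other shares by definition: 15.6%, 13.3% and 12.9% of gaps within 1 kb, 98.2%, 93.9% and 88.5% within 100 kb, 8.18%, 6.06% and 2.14% at a height of 30, and 4.55%, 5.05% and 4.29% at 3 kb. On chromosome 10 the stretch was above the rest in median height and in median width in 6 of 6 settings each. On chromosome 11 its median width was below the rest in 6 of 6. On chromosome 19 its median width was above in 6 of 6, and its share at a height of 20 was below the rest in 4 of 7 settings and above it in 3. With chromosome 10 left out, an alternative added after the data were seen, the pooled median width of members was 1165 bp against 1205 bp in the rest, where all 3 stretches gave 1244 against 1169.5 bp. No paired analysis was possible because the list comes from a single library. The unknown depth and threshold limit what the absence of an interval means.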
